A study of Mus musculus with 6 samples.

Results

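The TREM receptors and their adaptors were followed in CD11b+ cells sorted from mouse spleen. Triggering receptors expressed on myeloid cells (TREMs) and TREM-like receptors are immunoglobulin-type surface proteins of monocytes, macrophages, neutrophils, dendritic cells and platelets. The members were chosen by gene symbol, with earlier results of these data known. They are 6 receptor genes (Trem1, Trem2, Trem3, Treml1, Treml2 and Treml4) and 2 adaptor genes, Tyrobp, which encodes DAP12, and Hcst, which encodes DAP10. All 8 were found among the 55335 genes of the count table, and all 8 were among the 14849 genes that passed the filter on low counts. The first group had myocardial infarction and renal denervation (MI+RDN), in which the nerves supplying the kidney are ablated, and it was compared with myocardial infarction alone (MI). All samples were labelled WT and came from mice with an infarct, and no group without one was analysed here. The comparison asks how denervation in mice with an infarct bears on the myeloid cells of the spleen. Each group had 3 libraries described as biological replicates. The labels used here do not give the strain, sex, age, time after infarction, or whether a library was 1 mouse or a pool, so p-values measure the spread between these libraries only.

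As background, TREM1, TREM2 and TREM3 have short cytoplasmic tails and signal through DAP12, whose tyrosine motif (ITAM) recruits the kinase SYK. DAP10 carries a different motif that recruits phosphoinositide 3-kinase. TREM1 amplifies inflammatory responses of neutrophils and monocytes, whereas TREM2 senses lipids and apolipoproteins in macrophages and restrains some inflammatory responses. TREM3 is a close relative of TREM1 that is functional in mice. Of the TREM-like receptors, TREML1 (TLT-1) is stored in platelet granules and carries an inhibitory motif. TREML2 (TLT-2) is found on B cells, neutrophils and macrophages. TREML4 marks patrolling Ly6C-low monocytes and some splenic macrophages and dendritic cells, and binds dying cells.

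Library totals ranged from 21663440 to 28013900 counts. Levels are given as CPM, the count of a gene scaled to 1000000 counts of its library. Itgam, which encodes the sort marker CD11b, stood at 1598 ± 95.2 CPM in MI+RDN and 1133 ± 150 CPM in MI (SD, n = 3 each). It did not pass the test (edgeR quasi-likelihood test, p after Benjamini-Hochberg (BH) adjustment 0.109). Summed CPM of 14 neutrophil markers ranged from 29339 to 52815 in MI+RDN libraries and from 16015 to 25127 in MI libraries, and all 14 fold changes were positive, 3 of them past the threshold. Splenic macrophage markers had negative fold changes in 15 of 17 genes, with sums of 1161 to 1631 CPM in MI+RDN and 1444 to 1675 CPM in MI. B cell markers, with sums of 332 to 526 CPM in MI+RDN and 639 to 934 CPM in MI, were negative in 12 of 12 genes. No gene of these lists was at 0 in all libraries. In sorted bulk RNA, fewer cells of a type and less RNA per cell cannot be told apart.

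Trem2 was the member that rose after renal denervation, while the others did not pass the test. With edgeR and Benjamini-Hochberg adjustment over all genes at 0.05, 1 of 8 members was higher in MI+RDN and 0 were lower. Over all genes tested, 0.296% were called higher, 0.714% lower and 1.01% in either direction. Fold changes were positive in 6 of 8 members, against 51% of all genes. Their median log2 fold change was 0.35, against 0.0080 over all genes. The groups did not overlap for 5 of 8 members, compared with 26.2% of all genes tested. At an unadjusted p under 0.05 there were 4 of 8 members, compared with 19.9% of all genes.

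**Figure D1:**
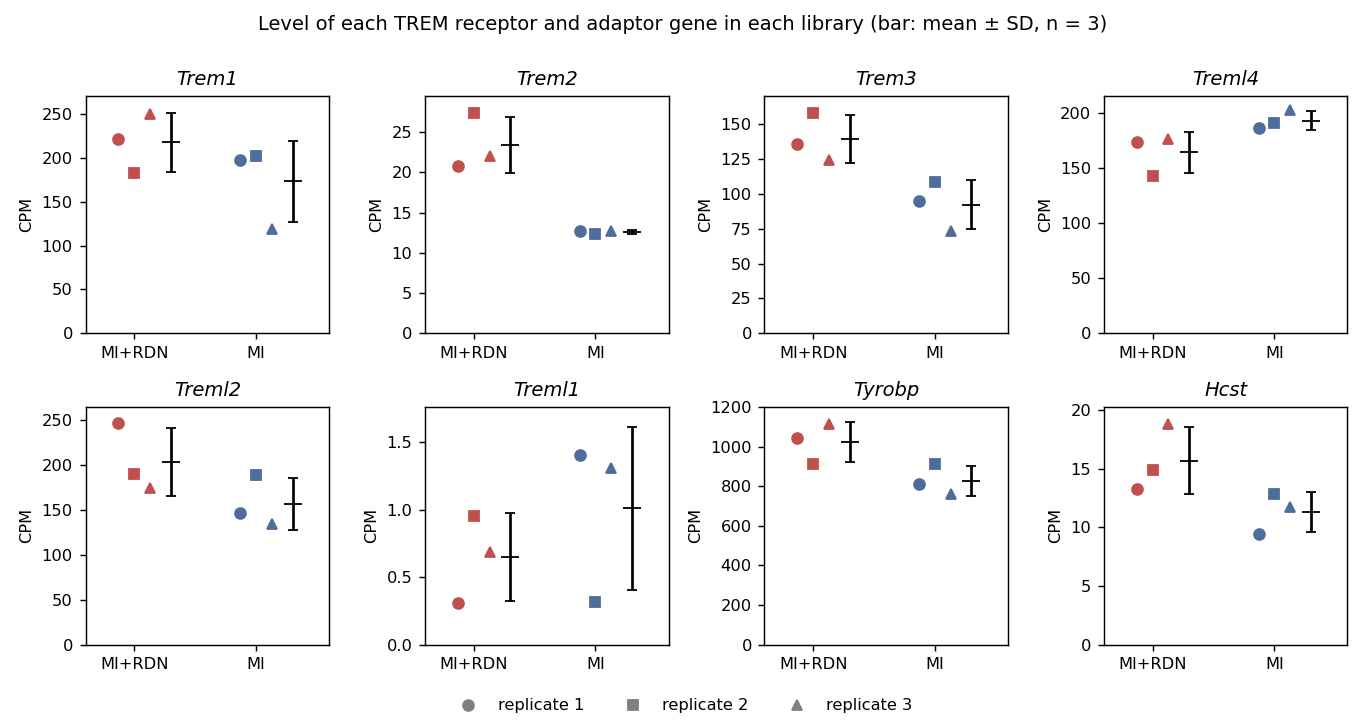
Level of each TREM receptor and adaptor gene in CPM, on a linear axis from 0, with MI+RDN libraries in red on the left and MI libraries in blue on the right. Symbols mark the replicates and bars give the mean ± SD of 3 libraries. The 3 MI libraries of Trem2 lie close together, at 12.3 to 12.8 CPM, below the MI+RDN libraries at 20.8 to 27.4 CPM.

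Trem2 (ENSMUSG00000023992) had 20.8, 27.4 and 22.05 CPM in the MI+RDN libraries, replicates 1 to 3, against 12.7, 12.3 and 12.8 CPM in the MI libraries. Every MI+RDN library was above every MI library, and MI+RDN replicate 2 was the highest. These levels rest on 541, 750 and 513 counts in MI+RDN and 299, 273 and 342 counts in MI. Trem2 rose 1.86-fold (log2 fold change 0.89, SE 0.134, edgeR BH-adjusted p = 0.0401), and its p was 60th lowest of the 14849 genes tested. The call lay near the threshold. It was lost with any 1 of the 6 libraries left out (log2 fold change 0.75 to 0.98, edgeR adjusted p = 0.0584 to 0.136), in fits with fewer samples. Trem2 had the opposite sign to the macrophage markers given above, of which 15 of 17 were negative and 0 passed. Ly6C-high monocyte markers had sums of 9645 to 12552 CPM in MI+RDN and 9512 to 11015 CPM in MI, with 7 of 11 fold changes positive. The part of these cell types in the rise of Trem2 was not tested.

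The genes whose pattern over the 6 libraries lay nearest to that of Trem2 were sought among 13108 genes with a mean of at least 1 CPM. Nearness was the root mean square difference in log2 CPM after centring each gene. The nearest was Ly6c1, a surface antigen of inflammatory monocytes and other cells, with a difference of 0.0487. Msrb2, a mitochondrial methionine sulfoxide reductase, followed at 0.0640. Gyg, which encodes glycogenin, the primer of glycogen synthesis, stood at 0.11. The antioxidant enzyme Prdx5 also stood at 0.11, and Ly6c2, the close paralog of Ly6c1, at 0.114. Ly6c1 and Ly6c2 may share reads. This is a description over 6 libraries, and any gene with a like difference between the groups would be near.

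Trem3 (ENSMUSG00000041754), the relative of Trem1, had 136, 158 and 124 CPM in MI+RDN, against 95.4, 108 and 73.4 CPM in MI. The groups did not overlap, and the highest library was again MI+RDN replicate 2. The log2 fold change of 0.60 (SE 0.156) did not pass in edgeR (BH-adjusted p = 0.0995), whereas the DESeq2 Wald test gave an adjusted p of 0.00781. DESeq2 was the only 1 of 16 alternatives in which Trem3 passed, and it called 1083 genes, against 150 with edgeR. With a library left out, the edgeR adjusted p of Trem3 was 0.132 to 0.2365. Trem1 (ENSMUSG00000042265) had 221, 182 and 249 CPM in MI+RDN and 198, 202 and 119 CPM in MI. The groups overlapped, with MI replicates 1 and 2 above MI+RDN replicate 2. Its log2 fold change was 0.33 (SE 0.210, edgeR BH-adjusted p = 0.420), and 0.12 without MI replicate 3, the lowest library.

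Within MI, the neutrophil marker sums of 24639, 25127 and 16015 CPM stood in the same order as the Trem1 levels. Within MI+RDN, replicate 2 had the highest sum (52815 CPM) and the lowest Trem1 level, but single markers differed. The granule protein genes Ngp and Ltf were highest in that library, whereas Csf3r, the G-CSF receptor gene (7667, 4362 and 7781 CPM), and Cxcr2, a chemokine receptor gene (2062, 1241 and 1925 CPM), were lowest in it, as Trem1 was. The part of neutrophil content in the values of Trem1 and Trem3 was not tested. In the GRCm38 annotation a processed pseudogene lies antisense within Trem1, and the strand setting of the counting is not known, so reads of these genes cannot be told apart. No annotated gene overlapped any other member.

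Treml4 (ENSMUSG00000051682) was one of 2 members with a negative fold change. It had 174, 142 and 176 CPM in MI+RDN, against 186, 190 and 202 CPM in MI. Every MI+RDN library was below every MI library, by a small margin for replicates 1 and 3. The log2 fold change was -0.23 (SE 0.106, edgeR BH-adjusted p = 0.271). It became -0.16 without MI+RDN replicate 2. With library totals in place of scaling factors it was -0.37, a setting that shifted the median of all genes to -0.13. The other 11 genes of the Ly6C-low monocyte list, the cells that TREML4 marks, had sums of 3180 to 3999 CPM in MI+RDN and 3218 to 3554 CPM in MI. Itgal was the largest part of these sums, averaging 1806 CPM in MI+RDN and 1527 CPM in MI. Fold changes were positive in 6 genes, of which Pglyrp1, also a gene of neutrophil granules, passed (log2 fold change 0.96). The other positive values ranged from 0.026 (Spn) to 0.48 (Fabp4). Fold changes were negative in 5, Cx3cr1, Ace, Cd36, Pparg and Ear2, none of which passed. These ranged from -0.28 (Pparg) to -0.65 (Cx3cr1) on the log2 scale. Conventional dendritic cell markers, which are carried by another TREML4-bearing type, were negative in 16 of 16 genes, 4 of them past the threshold, with sums of 1660 to 1881 CPM in MI+RDN and 2162 to 2333 CPM in MI. Their part in the Treml4 values was not tested.

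Treml2 (ENSMUSG00000071068) had 246, 190 and 174 CPM in MI+RDN and 146, 189 and 134 CPM in MI. MI replicate 2 stood within the MI+RDN range, so the groups overlapped. The log2 fold change was 0.38 (SE 0.170, edgeR BH-adjusted p = 0.269), with a value of 0.22 without MI+RDN replicate 1. Among the cell types known to carry TREML2, neutrophil markers were positive in 14 of 14 genes, like Treml2, whereas B cell markers were negative in 12 of 12 and macrophage markers in 15 of 17. The part of these cell types in the Treml2 values was not tested.

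Treml1 (ENSMUSG00000023993), the platelet receptor gene, was near the lower limit of detection. It had 8, 26 and 16 counts in MI+RDN and 33, 7 and 35 counts in MI, or 0.308 to 0.950 CPM and 0.316 to 1.41 CPM. The groups overlapped, with MI replicate 2 beside MI+RDN replicate 1 at the lower end. The log2 fold change was -0.64 with an SE of 0.618 (edgeR BH-adjusted p = 0.601). The other 15 platelet and megakaryocyte markers were also low, with sums of 69.2 to 78.1 CPM in MI+RDN and 64.1 to 86.0 CPM in MI, and none was at 0 in all libraries. The Treml1 difference was close in size to its SE, and its counts varied widely within both groups.

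Both adaptors stood higher in MI+RDN with no overlap, and neither passed. Tyrobp (ENSMUSG00000030579) had 1044, 911 and 1113 CPM in MI+RDN, against 812, 910 and 763 CPM in MI. MI+RDN replicate 2 and MI replicate 2 were nearly equal, at 911 and 910 CPM. Its log2 fold change was 0.30 (SE 0.127, edgeR BH-adjusted p = 0.237), and without scaling factors it was 0.17. Hcst (ENSMUSG00000064109) had 13.2, 14.9 and 18.8 CPM in MI+RDN, against 9.46, 12.8 and 11.7 CPM in MI. The lowest MI+RDN library and the highest MI library differed by less than the spread within either group. Its log2 fold change of 0.47 (SE 0.179, edgeR BH-adjusted p = 0.204) was 0.30 without MI+RDN replicate 3. DAP10 is best known as the partner of the NKG2D receptor on NK and T cells. Most markers of these cells had the opposite sign to Hcst. NK cell markers were negative in 10 of 12 genes, with sums of 242 to 328 CPM in MI+RDN and 315 to 349 CPM in MI. T cell markers were negative in 12 of 12 genes, with sums of 51.4 to 76.9 CPM in MI+RDN and 99.1 to 135 CPM in MI. The part of these and other cell types in the Hcst values was not tested.

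On a scale per transcript length, RPKM (CPM per 1000 bases of transcript), DAP12 message far exceeded that of every receptor. Tyrobp averaged 1814 ± 182 RPKM in MI+RDN and 1469 ± 134 RPKM in MI (SD, n = 3 each). Next came Trem3, at 140 ± 17.4 RPKM in MI+RDN and 92.9 ± 17.8 RPKM in MI. Treml2 averaged 97.1 ± 18.1 RPKM in MI+RDN and 74.8 ± 13.7 RPKM in MI. Treml4 averaged 94.0 ± 10.8 RPKM in MI+RDN and 111 ± 4.78 RPKM in MI. In MI, Treml4 thus had the highest receptor mean, and its range overlapped with that of Trem3, which overlapped with Treml2. In MI+RDN, Trem3 stood above the other receptors without overlap, and Treml2 and Treml4 could not be ordered. The order depends on the 1 transcript length used per gene, 994 bases for Trem3 and 2993 bases for Trem1. Before division by length, Trem3 averaged 140 CPM and Trem1 218 CPM in MI+RDN, and 92.4 and 173 CPM in MI. Other lengths were not tried. Trem1 averaged 72.7 ± 11.3 RPKM in MI+RDN and 57.8 ± 15.6 RPKM in MI. Its range touched those of Treml4 and Treml2 in MI+RDN, and that of Treml2 in MI. Lower levels were those of Hcst (35.4 ± 6.49 RPKM in MI+RDN and 25.6 ± 3.86 RPKM in MI) and Trem2 (21.5 ± 3.21 RPKM in MI+RDN and 11.6 ± 0.238 RPKM in MI). Treml1 was below 1.2 RPKM in all 6 libraries.

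The makeup of the message of the 6 member receptors was described by shares of their summed RPKM. Genes of the TREM cluster that are not members were left out. Among them was B430306N03Rik (synonym Treml6), at 268 CPM in MI+RDN and 210 CPM in MI. The 6 receptors summed to 426 ± 18.2 RPKM in MI+RDN and 349 ± 40.5 RPKM in MI (SD, n = 3 each). Treml4 made up 22.1 ± 2.47% of this sum in MI+RDN and 32.1 ± 5.06% in MI. Trem3 made up 33.0 ± 4.43% in MI+RDN and 26.5 ± 2.15% in MI, and Trem2 5.07 ± 0.882% in MI+RDN and 3.36 ± 0.456% in MI. The shares of Trem1 (17.1 ± 2.84% in MI+RDN, 16.4 ± 3.03% in MI) and Treml2 (22.7 ± 3.21% in MI+RDN, 21.4 ± 1.75% in MI) differed by less than their SDs. The libraries of the groups did not overlap for the shares of Treml4, Trem3 and Trem2. In CPM, 26.2% of all genes tested did not overlap, and no such background was computed for shares. Shares of one sum move together, so a lower share of 1 receptor raises the others.

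Set against the message for their adaptor, 2 of the 4 receptors taken as DAP12 partners (Trem1, Trem2, Trem3 and Treml4) separated the groups. In CPM, 26.2% of all genes tested did so, and no such share was computed for ratios to Tyrobp. In sorted bulk RNA the receptor and the adaptor message need not come from the same cells. Trem2 was 1.03% to 1.56% of the Tyrobp RPKM in MI+RDN and 0.701% to 0.869% in MI. Treml4 was 5.05% to 5.38% of Tyrobp in MI+RDN and 6.76% to 8.57% in MI. In both cases the libraries of the groups were apart, Trem2 higher and Treml4 lower in MI+RDN. The mean difference of the log2 ratio was 0.58 for Trem2 and -0.54 for Treml4. The Treml4 ratio reflects both of its genes, since the log2 fold change was -0.23 for Treml4 and 0.30 for Tyrobp, neither of which passed. A two-sided exact permutation test gave p = 0.1 for each, the smallest p that 3 against 3 libraries allow, and 0.2 with Benjamini-Hochberg adjustment over the 4 ratios. For Trem3 the ratio was 6.34% to 9.86% in MI+RDN and 5.46% to 6.76% in MI (exact permutation p = 0.3, adjusted 0.4). For Trem1 it was 3.77% to 4.22% in MI+RDN and 2.95% to 4.59% in MI (exact permutation p = 0.9, adjusted 0.9).

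**Figure D2:**
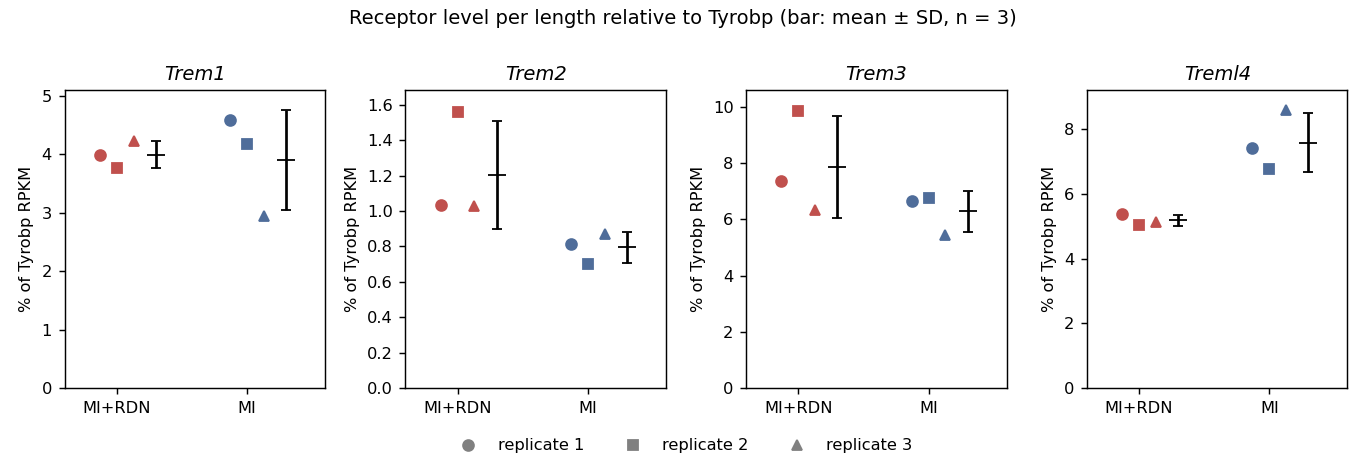
Level of Trem1, Trem2, Trem3 and Treml4 as a percentage of the Tyrobp level, both per transcript length, with MI+RDN libraries in red on the left and MI libraries in blue on the right and axes from 0. Bars give the mean ± SD of 3 libraries. Trem2 lies above 1% in each MI+RDN library and below 0.9% in each MI library, and Treml4 is lower in every MI+RDN library.

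The receptor genes lie side by side on mouse chromosome 17. In RefSeq's GRCm38.p6 annotation 9 genes of the cluster follow in the order 9830107B12Rik (synonym Trem5), A530064D06Rik (synonym Trem4), Trem1, Trem3, Treml4, Treml2, B430306N03Rik (synonym Treml6), Trem2 and Treml1. The 3 cluster genes that are not members were looked at because of their place, outside the rule for named genes, and none passed. 9830107B12Rik had 53.1, 47.9 and 48.8 CPM in MI+RDN, against 31.5, 35.4 and 24.4 CPM in MI. Its groups did not overlap, and its log2 fold change of 0.71 (SE 0.140) just missed the threshold (edgeR BH-adjusted p = 0.0573). A530064D06Rik averaged 109 ± 25.4 CPM in MI+RDN and 68.1 ± 12.3 CPM in MI, with overlap. B430306N03Rik averaged 268 ± 92.8 CPM in MI+RDN and 210 ± 19.5 CPM in MI, also with overlap. Treml4, with its negative fold change, stands between Trem3 and Treml2, whose fold changes were positive.

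**Figure D3:**
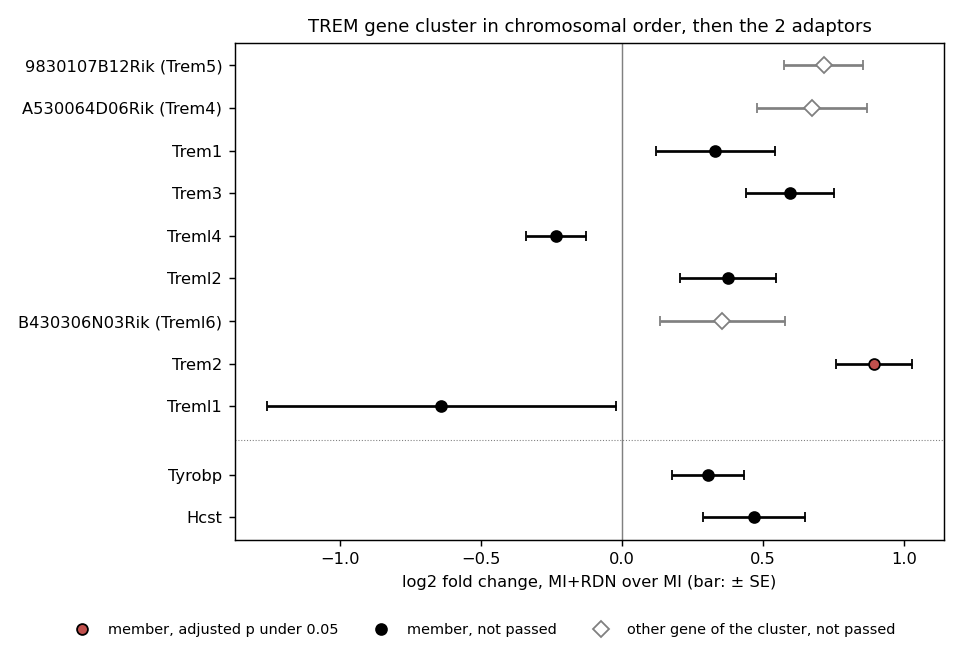
Log2 fold change of MI+RDN over MI for the 9 TREM cluster genes in chromosomal order from top to bottom, and below the dotted line for the 2 adaptor genes on chromosome 7. Bars give ± SE from the edgeR fit. Trem2, in red, is the only one of these genes with an adjusted p under 0.05, and Treml4 and Treml1 are the ones left of 0.

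Upstream sequences are shown for Trem2, the member that passed, and for Trem1 and Treml4 of the same cluster, which did not pass. Each is the 250 bases before the RefSeq gene start in GRCm38.p6, plus strand, at chr17:48346151-48346400 for Trem2, chr17:48232489-48232738 for Trem1 and chr17:48264045-48264294 for Treml4. Capitals mark GAGGAA, letters found in many sites for the myeloid factor PU.1, or their reverse complement TTCCTC. Other forms of such sites were not searched for.
Trem2: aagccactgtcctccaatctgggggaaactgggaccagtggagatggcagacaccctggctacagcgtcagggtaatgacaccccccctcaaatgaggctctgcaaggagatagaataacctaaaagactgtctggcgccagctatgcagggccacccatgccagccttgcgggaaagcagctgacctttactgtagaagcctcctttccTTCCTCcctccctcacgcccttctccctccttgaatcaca
Trem1: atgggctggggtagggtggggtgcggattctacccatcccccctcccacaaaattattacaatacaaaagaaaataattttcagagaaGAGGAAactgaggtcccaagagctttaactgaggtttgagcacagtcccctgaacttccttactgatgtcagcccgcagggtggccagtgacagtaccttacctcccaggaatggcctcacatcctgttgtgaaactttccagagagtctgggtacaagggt
Treml4: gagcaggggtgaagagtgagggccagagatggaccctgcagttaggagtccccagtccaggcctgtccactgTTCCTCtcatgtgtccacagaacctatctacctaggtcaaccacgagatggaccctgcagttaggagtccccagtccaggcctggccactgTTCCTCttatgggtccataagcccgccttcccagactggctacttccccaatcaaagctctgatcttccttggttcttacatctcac
The Trem2 window held 1 match on the opposite strand, the Trem1 window 1 match on the gene strand, and the Treml4 window 2 matches on the opposite strand. Of the 5 members with an entry, the windows of Treml1 and Hcst held 0 matches. Among all 32851 windows of this length, 23.3% held the letters on either strand. A match describes these letters only, and they were found for Trem2, which rose, and for Trem1 and Treml4, which did not pass.

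Genes that work with the TREM receptors were described in 7 lists, and most of their members did not pass. Among 17 tested receptors that also couple to DAP12 or DAP10, 0 passed, 9 fold changes were positive and 8 negative, and the median log2 fold change was 0.0053. The gene with the lowest p was Klrk1, which encodes NKG2D, at 26.1 ± 1.91 CPM in MI+RDN and 38.5 ± 4.43 CPM in MI (edgeR BH-adjusted p = 0.0634). Siglech, a receptor of plasmacytoid dendritic cells, followed at 0.422 ± 0.148 CPM in MI+RDN and 0.9996 ± 0.0901 CPM in MI (edgeR BH-adjusted p = 0.1504). Klrk1 and Siglech are also in the NK and plasmacytoid dendritic cell marker lists.

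Other ITAM adaptors had negative fold changes in 6 of 7 genes, with a median log2 fold change of -0.85. Cd3d, a chain of the T cell receptor complex, was the 1 that passed. It had 1.42, 1.57 and 1.98 CPM in MI+RDN, against 5.28, 4.69 and 3.81 CPM in MI (log2 fold change -1.47, SE 0.245, edgeR BH-adjusted p = 0.0442). The 6 negative genes encode chains of the T and B cell receptors. T cell markers were negative in 12 of 12 genes and B cell markers in 12 of 12. These counts are not separate from the adaptors. Cd3d, Cd3e and Cd3g are also in the T cell marker list, and Cd79a and Cd79b in the B cell list. Fcer1g, the ITAM chain of myeloid Fc receptors, was the 1 positive gene and is named after its values were seen. It stood at 529 ± 49.9 CPM in MI+RDN and 418 ± 24.5 CPM in MI and did not pass (edgeR BH-adjusted p = 0.148), like Tyrobp.

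Of 29 kinases and adaptors downstream of DAP12, 0 were higher, 1 was lower and 28 did not pass, with a median log2 fold change of 0.014. Vav2, a guanine nucleotide exchange factor, had 34.0, 34.5 and 33.0 CPM in MI+RDN, against 56.1, 56.1 and 68.2 CPM in MI. The groups were far apart relative to their spread, and Vav2 fell by 0.83 on the log2 scale (SE 0.104, edgeR BH-adjusted p = 0.0278). Negative regulators of ITAM signalling had 15 of 19 positive fold changes and 0 calls, with a median of 0.19, or 0.059 without MI+RDN replicate 2. Dok3, an adaptor that restrains DAP12 signals in macrophages, stood at 464 ± 18.0 CPM in MI+RDN and 338 ± 38.7 CPM in MI (edgeR BH-adjusted p = 0.0861). Pilra, an inhibitory receptor, stood at 400 ± 49.2 CPM in MI+RDN and 285 ± 44.8 CPM in MI (edgeR BH-adjusted p = 0.129).

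The list of TREM ligands, partners and sheddases had 1 of 13 tested genes higher and 0 lower, with a median log2 fold change of 0.050. The gene was Pglyrp1, a peptidoglycan recognition protein of neutrophil granules and a ligand of TREM1. It had 375, 485 and 364 CPM in MI+RDN, against 235, 226 and 171 CPM in MI. Every MI+RDN library was above every MI library, and Pglyrp1 rose 1.94-fold (log2 fold change 0.96, SE 0.162, edgeR BH-adjusted p = 0.0462). Its highest library, MI+RDN replicate 2, also had the highest neutrophil marker sum, and the part of neutrophil content in the rise of Pglyrp1 was not tested. The rise of this ligand gene stood beside a Trem1 level that did not pass. Of the other 5 genes of the list, Apob, Fga, Fgb, Fgg and Il34 did not pass the filter on low counts.

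Genes that accompany TREM2 in lipid-handling macrophages had 16 of 24 positive fold changes and 0 calls. Their median log2 fold change was 0.27, and 0.12 without MI+RDN replicate 3. Ank, a transporter of pyrophosphate and citrate, had the lowest p, at 21.7 ± 1.55 CPM in MI+RDN and 32.7 ± 3.75 CPM in MI (edgeR BH-adjusted p = 0.0612). Timp2, an inhibitor of matrix metalloproteinases, went the other way, at 75.8 ± 6.35 CPM in MI+RDN and 56.6 ± 1.93 CPM in MI (edgeR BH-adjusted p = 0.0677). Apoe, a lipoprotein ligand of TREM2, is named after its values were seen. It stood at 952 ± 47.5 CPM in MI+RDN and 1270.5 ± 73.7 CPM in MI, opposite in sign to Trem2, and did not pass (edgeR BH-adjusted p = 0.103).

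Inflammatory genes that TREM1 signalling amplifies had 13 of 18 negative fold changes, 1 gene higher and 1 lower. The median log2 fold change was -0.39, or -0.21 without MI replicate 2. Nos2, the inducible nitric oxide synthase, had 2.93, 5.08 and 4.99 CPM in MI+RDN, against 0.852, 0.406 and 0.523 CPM in MI (log2 fold change 2.86, SE 0.374, edgeR BH-adjusted p = 0.0316). Cd83, a maturation marker of dendritic cells, had 11.97, 9.75 and 13.7 CPM in MI+RDN, against 22.4, 24.3 and 31.1 CPM in MI. Cd83 fell by 1.14 on the log2 scale (SE 0.175, edgeR BH-adjusted p = 0.0401), and had the sign of the dendritic cell markers given above. The 4 other genes of the list, Il6, Cxcl1, Csf2 and Csf3, did not pass the filter on low counts. With any 1 library left out, the calls of Pglyrp1, Nos2, Cd83 and Cd3d were lost in all 6 fits, and that of Vav2 in 5 of 6. In fits to all 6 libraries, these 5 genes did not pass without a filter (edgeR adjusted p = 0.0551 to 0.0850). With the replicate block Cd83 passed (edgeR adjusted p = 0.0408) and the other 4 did not (0.0515 to 0.0950). Pglyrp1 and Cd3d also missed the threshold with limma-voom (adjusted p = 0.0501 and 0.0503), and Pglyrp1 with median-ratio factors (edgeR adjusted p = 0.0501).

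**Figure D4:**
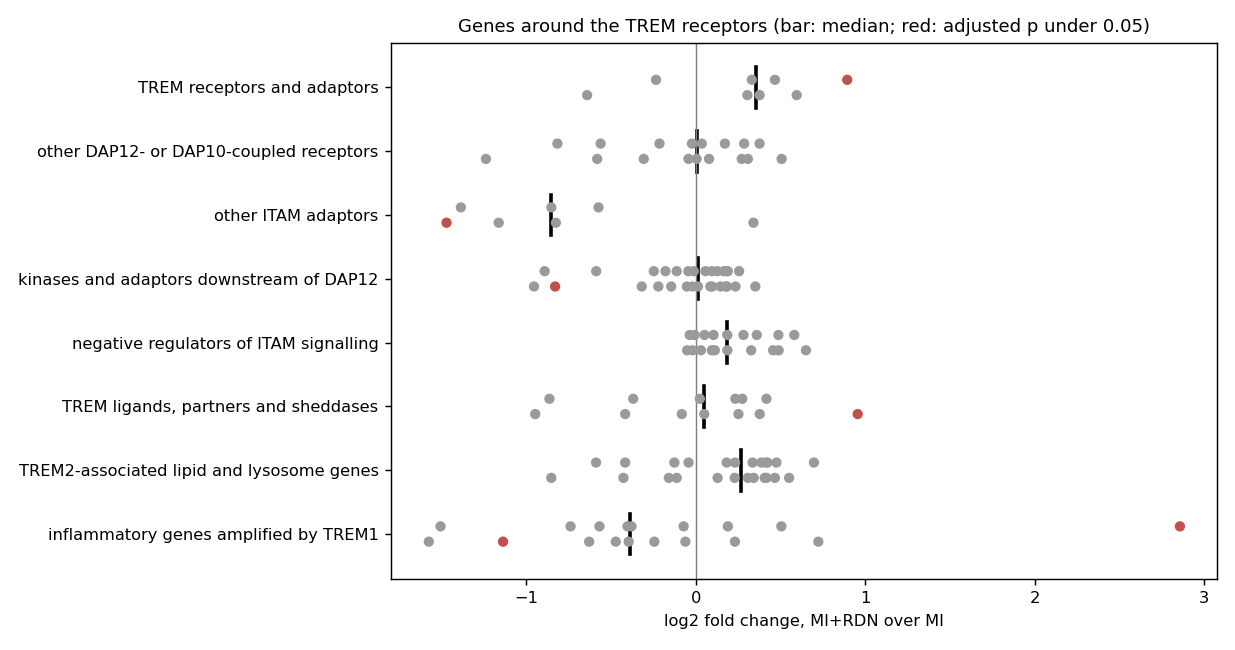
Log2 fold change of MI+RDN over MI for every tested gene of the members and of the 7 lists around them, 1 point per gene, offset vertically for clarity. Black bars are list medians and red points have an adjusted p under 0.05. The red points are Trem2, Cd3d, Vav2, Pglyrp1, Cd83 and Nos2, and the other points did not pass.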

How the data were processed

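The authors deposited 1 table of raw counts per Ensembl gene, with a column for each of 6 libraries of splenic CD11b+ cells. Libraries were strand-specific, per the labels' protocols. FastQC 0.11.2, STAR and the build GRCm39 are named per the submitters' processing notes. The counting tool, the annotation, the strand setting and the handling of reads with several positions were not given in the sources used here. Symbols were matched by Ensembl ID for 55154 of 55335 genes, and transcript lengths came from a GRCm38 annotation (the longest protein-coding transcript with the best principal-isoform tag).

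The test used edgeR 4.0.16 under R 4.3.3 (filterByExpr defaults, TMM factors, quasi-likelihood F test, Benjamini-Hochberg adjustment over 14849 genes, threshold 0.05), fitted to all 6 libraries without covariates. A positive log2 fold change means higher in MI+RDN. Its standard error is its size divided by the root of the F statistic. CPM use TMM-scaled library sizes, and RPKM divide CPM by transcript length in kilobases. The log2 CPM used to compare patterns had a prior count of 2. The coefficient of biological variation was 20.7%. The procedure was tested on simulated data. Upstream sequences are RefSeq's, for 5 of 8 members. Figures used Python 3.11.15 and matplotlib 3.10.9.

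Members and lists were chosen with earlier results of these data known. Of the 7 pathway lists, every passing gene is named, up to 6, and otherwise the 2 with the lowest p. Lists share genes, among them Apoe and Lgals3. Of the 11 marker lists, sums leave out the members. Sums for plasmacytoid dendritic cells were 281 to 329 CPM in MI+RDN and 380 to 460 CPM in MI, with 6 of 7 tested genes negative. Erythroid sums were 173 to 246 CPM in MI+RDN and 389 to 779 CPM in MI, with 6 of 8 negative. Alternatives were other scaling factors, other filters, DESeq2 1.42.0, limma-voom 3.58.1, a robust fit, a replicate block, a table lacking haemoglobin, mitochondrial and antigen receptor genes, and fits that left out 1 library.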

Additional observations from a re-analysis of the deposited data

How the results depend on the processing

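All 8 members kept the sign of their fold change under every alternative that gave a value, 127 of 127 values. Trem2 passed under 8 of 16 alternatives (edgeR, DESeq2 or limma-voom adjusted p = 2.65e-05 to 0.136 over all 16). It did not pass without a filter (edgeR adjusted p = 0.0793), with the replicate block (0.0632), or with any library left out. The number of members past the threshold was 2 with DESeq2, 0 in the unfiltered fit, 0 with the replicate block, and 0 to 0 with a library left out. In the fits with 0 members called, 2 to 5 members had an unadjusted p under 0.05. The number was 2 of 8 without MI replicate 1 or MI replicate 3, where 2444 of 15273 and 2084 of 15201 of all genes had such a p. It was 5 of 8 without MI replicate 2, against 2620 of 15238 of all genes. In the unfiltered fit it was 4 of 8, against 3242 of 24315.

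Over all genes, edgeR called 150, 44 higher and 106 lower. The count was 1083 with DESeq2 (562 higher, 521 lower), 475 without scaling factors (62 higher, 413 lower), 277 with the robust fit, 277 without antigen receptor, haemoglobin and mitochondrial genes, 87 with the replicate block and 21 without a filter. With a library left out it was 0 to 67. The fits with 0 calls, without MI replicate 3 or MI+RDN replicate 1, had 2084 and 2323 genes at an unadjusted p under 0.05. The cause was not tested. Deviations of same-numbered libraries correlated at 0.018, -0.065 and 0.064 across genes. Those of differently numbered libraries correlated at -0.106 to 0.094, a range that holds all of these values. The correlations therefore cannot decide whether a replicate number marks libraries handled together. Without scaling factors, with all genes shifted by -0.13, the medians of 3 lists turned negative: other DAP12- or DAP10-coupled receptors (-0.13), kinases and adaptors (-0.12), and ligands, partners and sheddases (-0.088). Treml1 rested on 50 counts over the MI+RDN libraries (8 to 26 each) and 75 over the MI libraries (7 to 35 each), and the part of counting error in its SE was not tested.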
